A study of Mus musculus with 12 samples.

Results

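All cultured primordial germ cell-like cells (PGCLCs) of the series were compared with all germ cells taken from embryos. The comparison used 12 of 12 libraries, 6 of each kind, and the libraries were chosen by their labels alone. Primordial germ cells (PGCs) are the embryonic founders of sperm and eggs. They migrate to the forming gonad, keep many genes of pluripotent cells active and lose most of their DNA methylation on the way. PGCLCs are made in a dish from embryonic stem cells, which pass through an epiblast-like state and are then induced with bone morphogenetic protein 4 (BMP4) and other cytokines.

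The culture groups were d4c3, d4c5 and d4c7 PGCLCs: cells sorted at induction day 4 and expanded on m220 stromal feeder cells for 3, 5 or 7 days before a further sort. They were of strain C57BL/6, carried the Blimp1-mVenus and Stella-ECFP reporters (BVSC) and were sorted by the BV fluorescence. The embryonic groups were PGCs of embryonic day (E) 9.5 and, from E12.5, germ cells of males and of females. Their strain is given as ICR:C57BL/6=1:1, their reporter as Stella-EGFP (SG), and they were sorted as SG-positive. Each group had 2 libraries of 3′-end RNA sequencing, amplified from 10 ng of RNA in culture and from 1 ng in the embryo. Strain, reporter, sort and RNA input therefore cannot be told apart from culture, and the sex of the cultured cells is not stated in the labels used here. Whether the 2 libraries of a group came from separate cultures or litters is also not stated, so the p-values below reflect spread between libraries that may be technical.

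Levels are given in RPM, read numbers scaled by the authors to the reads assigned to genes, and differences as culture minus embryo on the log2(RPM + 1) scale, with their standard error (SE). That scale understates the change of genes at low levels, and where a condition is at or near 0 the difference depends on the added 1 and is no fold. A gene was tested where it reached 5 RPM in at least 2 libraries, and called where limma's Benjamini-Hochberg adjusted p over all tested genes was under 0.05. Depth, estimated from the smallest steps of the values, was 2219175 to 5817990 gene reads in the culture libraries and 2728173 to 4251559 in the embryonic ones. At that depth a gene listed at 0 may have had a true level worth up to 3 reads, or 0.517 to 1.36 RPM, counting error only. Between 9324 and 9694 genes per library were at 5 RPM or above. Summed RNA spike-ins (ERCC) were at 0 to 72.7 RPM in culture, at 628 and 1372 RPM at E9.5 and at 12107 to 16494 RPM at E12.5.

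The sorted cells carried germ cell RNA in every library. Prdm1, which encodes Blimp1, had a lowest, median and highest level of 88.3, 108 and 120.1 RPM in culture and 61.6, 64.7 and 71.7 RPM in the embryo. Dppa3, which encodes Stella, stood at 1310.3, 1408 and 1684 RPM in culture and at 2013, 2916 and 4846 RPM in the embryo. All 6 culture values lay above the embryonic ones for Prdm1 and below them for Dppa3, with log2 differences of 0.69 ± 0.09 and -1.09 ± 0.06. The culture sort read the Blimp1 reporter and the embryonic sort the Stella reporter, so the sort cannot be told apart from culture in these differences. Pou5f1, the gene of the pluripotency factor Oct4, was not called (log2 difference -0.14 ± 0.07, adjusted p = 0.0907), nor was Kit, the receptor of stem cell factor (log2 difference -0.11 ± 0.10, adjusted p = 0.363).

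Markers of other cells were not alike in the groups. The summed level of 19 blood and endothelial markers was 12.2 to 28.0 RPM in culture, 4066 to 4608 RPM at E9.5 and 17.1 to 21.2 RPM at E12.5. The haemoglobin genes held most of the E9.5 sum. Hbb-y, an embryonic beta-type globin gene, was at 1865 and 1669 RPM at E9.5, at 5.94 to 10.3 RPM in the 4 E12.5 libraries, and was listed at 0 in all 6 culture libraries. The leukocyte gene Ptprc was at 0 in culture and at E12.5, and the endothelial gene Cdh5 was at 0 in every library. Of the 7 tested members of this list, 6 were called lower in culture and 1 higher. The higher one was Tek, which held most of the sum in every culture library. Tek had 9.78 to 24.8 RPM in culture against 2.21 and 1.18 RPM at E9.5, and did not overlap any embryonic library (log2 difference 2.39). Hbb-y, Hbb-bh1, Hba-x, Hba-a1 and Hba-a2 reached 5 RPM only in embryonic libraries and Tek only in culture. The rule for testing thus largely fixed their directions in advance. Over all tested genes, 27.7% were called higher and 26.8% lower. The 24 stromal markers summed to 540 to 835 RPM in culture, 941 to 979 RPM at E9.5 and 426 to 577 RPM at E12.5. Of their 14 tested members, 3 were called higher and 6 lower (median -0.41). The higher ones were Sparc, Pdgfrb and Dcn. Only Sparc, which encodes a secreted matrix glycoprotein (229, 296 and 386 RPM in culture against 82.7, 163 and 181 RPM), did not overlap. Among the lower ones were Twist1 (38.6 and 39.9 RPM at E9.5, at most 2.75 RPM in culture), Pdgfra, Postn, Col5a1 and Twist2, which was at 0 in every culture library. Twist1, Twist2, Pdgfra and Postn reached 5 RPM only at E9.5. Pdgfrb, a receptor gene of mesenchymal cells, was called higher with 5.48, 6.74 and 7.68 RPM in culture, against 7.35 and 6.60 RPM at E9.5 and 0 at E12.5. Dcn, which encodes the matrix proteoglycan decorin and was also called higher, had 39.7 RPM in d4c5 replicate 1 and 7.46 RPM in d4c7 replicate 1, against 0.887 to 4.14 RPM in the other culture libraries and 0 to 2.36 RPM in the embryo. Col3a1, a fibrillar collagen gene, was likewise at 39.7 and 9.42 RPM in those 2 libraries and at 0.904 to 4.69 RPM in the other culture libraries, with 61.0 and 66.0 RPM at E9.5. Markers of endoderm summed to 19.9 to 32.2 RPM in culture and 22.8 to 68.4 RPM in the embryo, those of mesoderm and neural tissue to 62.8 to 150 and 76.9 to 130 RPM, and those of gonadal soma to 36.2 to 52.6 and 46.8 to 68.4 RPM, so these sums overlapped between the conditions. Single members could still be separated. Pax6, of the mesoderm and neural list, was called higher without overlap (37.6 to 72.7 RPM in culture against 10.4 to 29.7 RPM in the embryo). Of the 9 tested members of that list, 3 were higher and 4 lower. The part of these other cells in the results below was not tested. Fewer cells of a kind and less RNA per cell cannot be told apart in bulk libraries.

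Of 10856 tested genes, 5913 (54.5%) were called, 3009 higher in culture (27.7%) and 2904 lower (26.8%). With so large a background, a call alone says little about a gene. All 6 culture values lay above all 6 embryonic values in 1001 called genes (9.22%) and below them in 676 (6.23%). Whatever the p, 1004 (9.25%) and 677 (6.24%) genes were so separated, and 691 (6.37%) and 736 (6.78%) called genes differed by at least 1 on the log2 scale, upward and downward. The 1677 called and separated genes (15.4%) are the ones described most fully, and as non-overlap is read from the same values as the contrast, it describes them and does not support their call. The model takes its error from the 2 libraries of a group. When instead group was a random block, 1897 genes (17.5%) were called, 1113 higher (10.3%) and 784 lower (7.22%). In that fit the libraries of a group are correlated, with a single correlation for all genes. Libraries still count as partly independent, so it is less strict than a comparison with groups as the unit. That second p is named below as the adjusted p with group as a block. With 3 groups against 3, an exact permutation test of a single gene over groups has 20 regroupings and cannot go below p = 0.1.

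The difference between the conditions made up 39.3% of the summed squares over all tested genes. Differences among the 3 embryonic groups made up 37.9%, those among the 3 culture groups 7.91%, and those between the 2 libraries of a group 14.9%. Embryonic stages thus spread more widely than culture days, and without the E9.5 group the called genes with no overlap numbered 3596 (1771 higher and 1825 lower). Leaving out any group leaves fewer values to separate: the same count was 2185 without d4c3, 1844 without d4c5, 2310 without d4c7, 2238 without E12.5 males and 2155 without E12.5 females. Values by stage are given for some of the genes whose embryonic groups lay far apart. Same-numbered libraries of d4c5 and d4c7 deviated from their group means in a similar way (Pearson r = 0.455 across genes, which are not independent replicates). The pairs with d4c3 did so only weakly (r = 0.131 for d4c3 with d4c7 and 0.116 for d4c3 with d4c5). The d4c5 and d4c7 libraries numbered 1 were also those with more Dcn and Col3a1. Without these 2 libraries 5723 genes were called, and 1992 of them did not overlap.

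**Figure D1:**
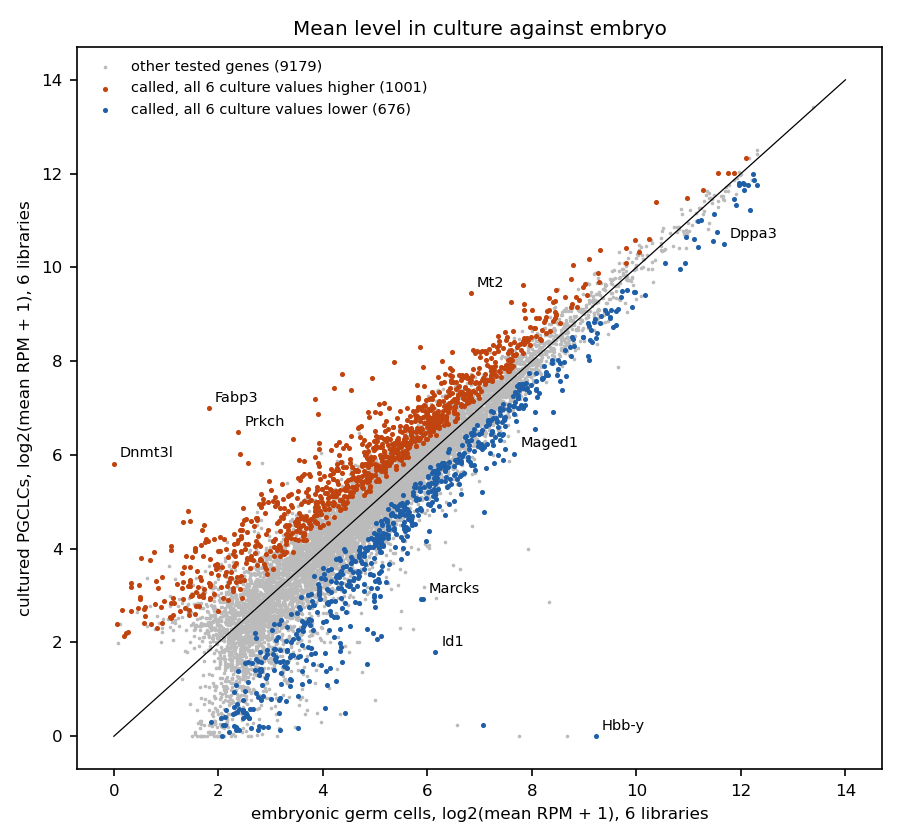
Mean level of every tested gene in the 6 culture libraries (vertical axis) against the 6 embryonic libraries (horizontal axis), both as log2(mean RPM + 1), with the line of equality. Red marks the 1001 called genes whose culture values all lay above the embryonic ones, blue the 676 whose values all lay below, and grey the other tested genes.

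Among called genes with no overlap and a condition mean of at least 50 RPM, the 15 with the largest increase and the 15 with the largest decrease are taken first. All 30 remained called with group as a block, which is a second fit to the values they were picked from and does not support them. Fabp3 (chr4:130308738-130315463, GRCm38.p6) had the largest increase. This gene, which encodes a fatty acid-binding protein best known from heart and muscle, was at 54.8, 119 and 207 RPM in culture and 1.84, 2.54 and 3.31 RPM in the embryo, a log2 difference of 5.04 ± 0.14 (adjusted p = 3.25e-11; 1.38e-07 with group as a block). The lowest culture value was far above the highest embryonic one, and the mean was 63.5 ± 12.4 RPM (SD, n = 2) in d4c3 and 196 ± 15.3 RPM in d4c7. Prkch (chr12:73584796-73778185), the gene of protein kinase C eta, had 66.5, 91.1 and 101 RPM against 1.52, 4.04 and 7.72 RPM (log2 difference 4.21 ± 0.19), with no such step over culture days. Calcoco2, which encodes the autophagy receptor NDP52, had 187, 192 and 263 RPM against 1.56, 5.23 and 52.4 RPM (log2 difference 4.35 ± 0.14), and its embryonic mean was 2.59 ± 1.45 RPM in E12.5 males, 5.23 ± 0.397 RPM at E9.5 and 50.9 ± 2.18 RPM in E12.5 females.

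Dnmt3l, the cofactor of the de novo DNA methyltransferases, was listed at 0 in all 6 embryonic libraries and was present in all 6 culture libraries, so no fold is given. Its culture values were 1.96 and 14.2 RPM in d4c3, 65.1 and 31.2 RPM in d4c5 and 178 and 41.0 RPM in d4c7. The level thus differed by a wide margin both between culture days and between the libraries of a group, while the embryo stayed at or under its floor.

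Cd59a, a further gene of the 15, encodes a membrane protein that protects cells from complement and had 63.1, 75.4 and 103 RPM in culture and 7.88, 10.1 and 11.9 RPM in the embryo (log2 difference 2.89 ± 0.13). Spp1, the gene of the secreted phosphoprotein osteopontin, had 67.9, 160.0 and 333 RPM against 10.9, 15.7 and 26.6 RPM (log2 difference 3.08 ± 0.15). Lgals9, the gene of the carbohydrate-binding lectin galectin-9, had 175, 255 and 326 RPM against 16.9, 43.9 and 62.0 RPM (log2 difference 2.73 ± 0.14). All 3 genes were separated from the embryo at every culture day, and Spp1 alone of them had its lowest values in d4c3. The secreted serine protease gene Htra1 (log2 difference 3.57 ± 0.28), the calcium-dependent phospholipid-binding gene Anxa2 (3.26 ± 0.27), Fam129a, a gene linked to cell stress (3.27 ± 0.21), and Bcat1, the cytosolic branched-chain aminotransferase (2.60 ± 0.18), were also among them.

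A pair of the 15 lay close together on chromosome 7, with 3 other annotated genes between them. AU018091 (chr7:3154658-3169203) had 96.7, 147 and 227 RPM in culture and 5.88, 15.0 and 18.5 RPM in the embryo (log2 difference 3.39 ± 0.12). D7Ertd143e (chr7:3218784-3221015), a long non-coding RNA gene, had 47.8, 117 and 161 RPM against 9.27, 13.9 and 19.7 RPM (log2 difference 2.92 ± 0.18). No culture value of either gene fell within the embryonic range. The RefSeq span of D7Ertd143e holds 7 miRNA genes of the miR-290 cluster, which is known for its high expression in embryonic stem cells. The 5 mature 3p miRNAs of its plus strand are shown to give the content of this locus, from RefSeq (GRCm38.p6), 5′ to 3′, with the seed (bases 2 to 8) in capitals:
mmu-miR-291a-3p: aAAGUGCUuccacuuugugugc
mmu-miR-291b-3p: aAAGUGCAuccauuuuguuugu
mmu-miR-293-3p: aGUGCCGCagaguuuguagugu
mmu-miR-294-3p: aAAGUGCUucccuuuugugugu
mmu-miR-295-3p: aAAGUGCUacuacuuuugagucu
The seed AAGUGCU was shared by 3 of them. The libraries measured the polyadenylated host RNA, and no level of a mature miRNA is given by them.

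Mt1 and Mt2 encode metallothioneins, small cysteine-rich proteins that bind zinc and copper, and lie next to each other on chromosome 8. Transcription of metallothionein genes is known to be driven by the metal-responsive factor MTF1 through short metal response elements. Mt1 had 66.7, 183 and 381 RPM in culture and 5.42, 39.4 and 47.9 RPM in the embryo, a log2 difference of 2.96 ± 0.30, and Mt2 had 387, 649.9 and 1071 RPM and 51.2, 87.6 and 199 RPM, a log2 difference of 2.73 ± 0.18. No culture value of either gene fell within the embryonic range. The embryonic groups differed among themselves, from 5.52 ± 0.147 RPM (Mt1, E12.5 male) to 44.0 ± 5.52 RPM (Mt1, E9.5). The zinc exporter gene Slc30a1, another gene known to respond to zinc, was also higher in culture and non-overlapping (41.1, 53.5 and 66.9 RPM against 18.8, 27.2 and 33.8 RPM; log2 difference 1.04 ± 0.13). The promoters of the 2 metallothionein genes are shown because both genes were higher together. They are RefSeq windows of GRCm38.p6 from 250 bases before to 50 after the start, on the plus strand, at chr8:94178839-94179138 and chr8:94172368-94172667, with the letters TGCACNC or TGCGCNC (a metal response element, on either strand) in capitals:
Mt1: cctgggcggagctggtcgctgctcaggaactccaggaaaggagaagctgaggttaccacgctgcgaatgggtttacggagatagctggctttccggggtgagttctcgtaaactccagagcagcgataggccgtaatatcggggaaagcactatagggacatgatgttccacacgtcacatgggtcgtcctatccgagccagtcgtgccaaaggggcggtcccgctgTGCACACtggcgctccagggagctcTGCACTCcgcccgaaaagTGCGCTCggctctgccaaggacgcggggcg
Mt2: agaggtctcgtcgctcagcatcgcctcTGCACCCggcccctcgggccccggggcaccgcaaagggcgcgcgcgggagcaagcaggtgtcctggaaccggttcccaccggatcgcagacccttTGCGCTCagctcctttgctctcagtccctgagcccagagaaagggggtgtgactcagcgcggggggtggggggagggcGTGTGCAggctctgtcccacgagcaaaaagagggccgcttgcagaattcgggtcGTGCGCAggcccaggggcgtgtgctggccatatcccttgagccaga
The window of Mt1 held 3 matches and that of Mt2 held 4. Such a match was common: 38.1% of the 8449 tested genes with a promoter in the table had at least 1, as did 35.7% of the non-overlapping genes higher in culture and 38.2% of those lower. Another 3 motifs were searched in the same way. The antioxidant response element (TGACNNNGC) was in 15.0% of all, 14.5% of the higher and 14.7% of the lower promoters. The cAMP response element (TGACGTCA) was in 3.56%, 2.64% and 3.86%, and the E-box CACGTG in 10.9%, 11.6% and 11.4%. A match is a description of letters and says nothing of binding.

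**Figure D2:**
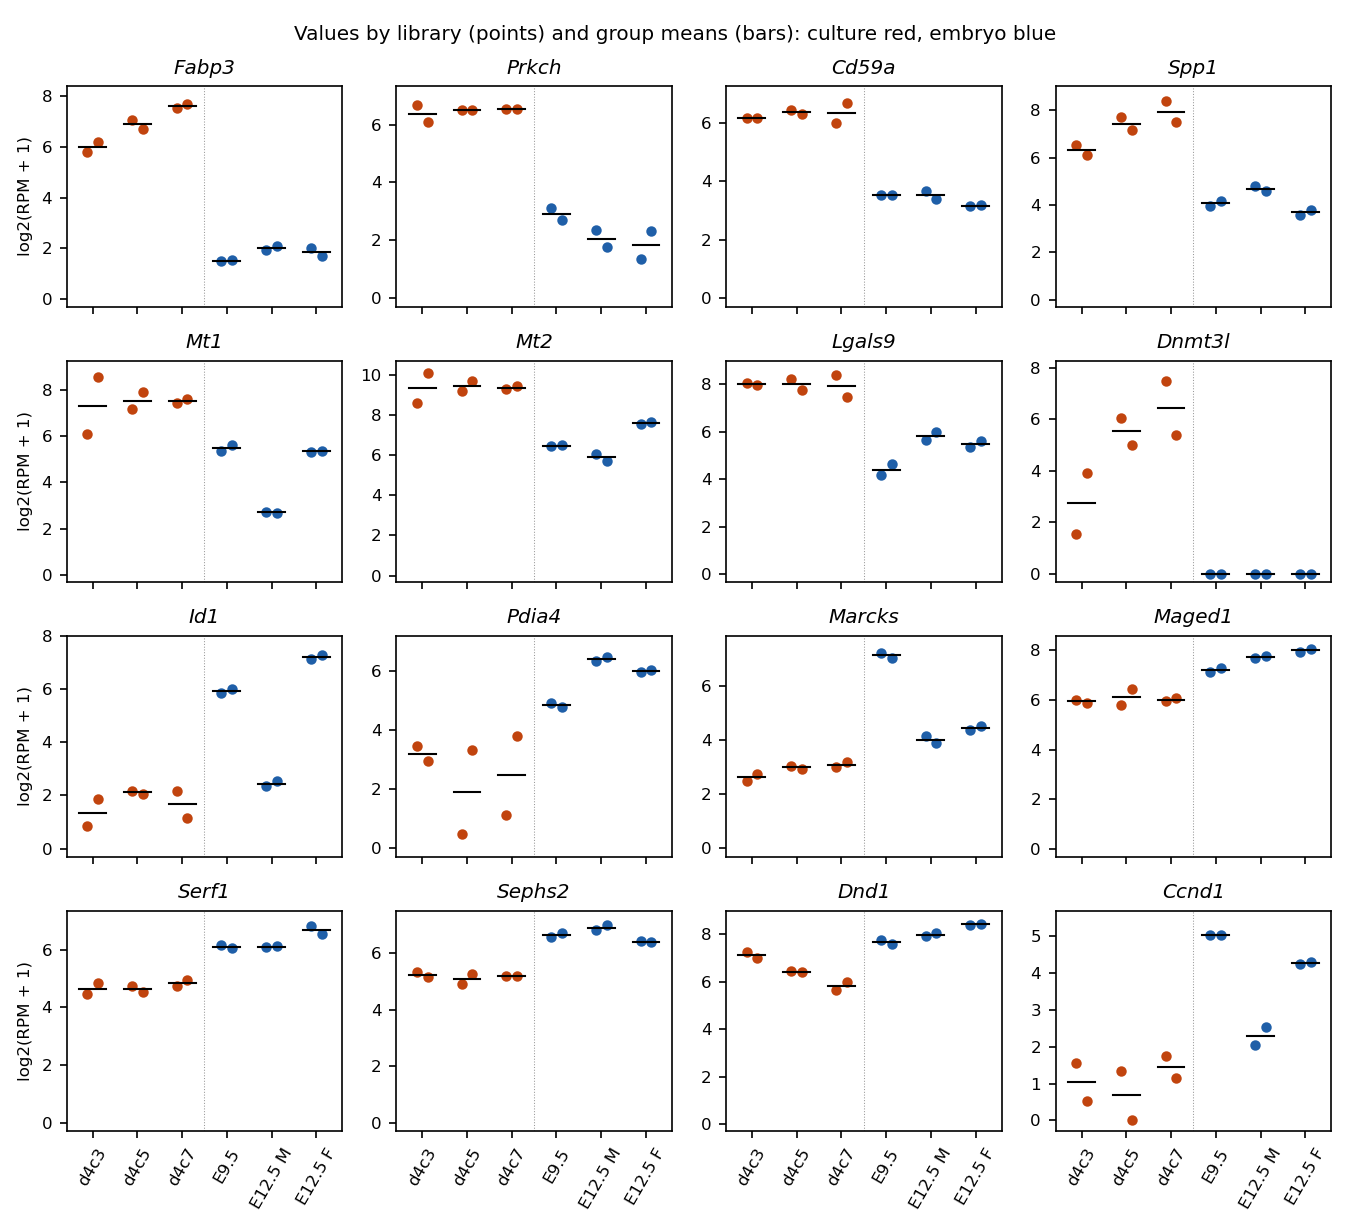
Level of 16 genes in each library (points, log2(RPM + 1)) with the mean of the 2 libraries of a group (bars), culture groups in red and embryonic groups in blue, in panels that start near 0. The 8 upper genes sat higher in every culture library than in any embryonic library, and the 8 lower genes sat lower.

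Among the genes lower in culture, Id1 (chr2:152736251-152737410), which encodes an inhibitor of basic helix-loop-helix factors and is a classic target of BMP signalling, had 0.782, 2.91 and 3.53 RPM in culture and 4.06, 59.9 and 154 RPM in the embryo, a log2 difference of -3.48 ± 0.22 (adjusted p = 3.73e-08; 0.00652 with group as a block). Its embryonic means were 59.9 ± 5.09 RPM at E9.5, 4.44 ± 0.533 RPM in E12.5 males and 146 ± 11.2 RPM in E12.5 females, so that the males lay closest to culture. The cultured cells had been exposed to BMP4 during induction, before their expansion. Id4, a related inhibitor, was also non-overlapping and lower in culture (log2 difference -2.24 ± 0.23), whereas Id3 overlapped (87.6, 139 and 231 RPM against 87.6, 217 and 327 RPM; log2 difference -0.43 ± 0.13; adjusted p = 0.428 with group as a block).

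Pdia4, which encodes a protein disulfide isomerase of the endoplasmic reticulum, had 0.390, 7.84 and 12.8 RPM in culture and 25.9, 62.6 and 88.2 RPM in the embryo (log2 difference -3.22 ± 0.45). Its culture values were uneven, with 0.390 and 9.04 RPM in the 2 libraries of d4c5 and 1.18 and 12.8 RPM in those of d4c7. Hyou1, a chaperone gene and another of the 15, had 25.9, 31.1 and 32.4 RPM against 49.6, 86.1 and 116 RPM (log2 difference -1.37 ± 0.13). Outside the 15, Hspa5, which encodes the chaperone BiP, had 328, 361 and 405 RPM against 407, 532 and 582 RPM (log2 difference -0.46 ± 0.06).

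Other lower genes had tighter values within culture. Marcks, the gene of an actin-linked substrate of protein kinase C, had 4.69, 6.92 and 8.10 RPM in culture and 13.8, 20.8 and 149.7 RPM in the embryo, where E9.5 stood highest. Maged1, a melanoma antigen family gene, had 54.2, 61.7 and 84.9 RPM against 137, 208 and 265 RPM (log2 difference -1.61 ± 0.10). Sephs2, which encodes the selenophosphate synthetase that supplies selenium for selenoproteins, had 28.8, 35.3 and 39.1 RPM against 81.7, 97.3 and 125 RPM (log2 difference -1.47 ± 0.09). In all 3 genes the culture range was narrower in RPM than the embryonic one, which was wider than the gap between the conditions. Serf1 (-1.59 ± 0.10), the ubiquitin ligase gene Pja1 (-1.75 ± 0.18), the Wnt-pathway transcription factor gene Tcf7 (-1.60 ± 0.11), the phospholipase gene Plcg2 (-1.39 ± 0.13), the ribosome biogenesis gene Rsl24d1 (-1.53 ± 0.23) and the bromodomain ATPase gene Atad2 (-1.33 ± 0.16) were also lower with no overlap, the values being log2 differences. Dnd1, an RNA-binding protein gene needed for PGC survival, had 49.1, 85.3 and 150.2 RPM in culture and 190.4, 254 and 349 RPM in the embryo (log2 difference -1.57 ± 0.08), and within culture it was 139 ± 15.9 RPM in d4c3 against 56.0 ± 9.78 RPM in d4c7. Hbb-y and Hba-a1, named by the same rule, are the haemoglobin genes described above, and Hba-a1 has a near-identical copy, Hba-a2, so its own level is uncertain.

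Gene lists were counted next, beside the tested genes as a whole, whose median log2 difference was -0.01. The counts describe each list and do not test it. Members that reached 5 RPM in a single condition had their direction largely fixed by the filter. Targets of p53, the transcription factor of the DNA damage response, stood highest. Of 21 tested targets, 16 were higher in culture and 1 was lower, 9 with no overlap and all of those higher, and 12 were higher with group as a block. Over all tested genes 27.7% were higher and 26.8% lower, and the list median was 0.90. Phlda3, a p53-induced inhibitor of Akt, had 18.8, 33.2 and 49.5 RPM against 3.31, 5.90 and 9.03 RPM (log2 difference 2.33 ± 0.15). Ccng1, a cyclin gene induced by p53, had 129, 179 and 238 RPM against 25.7, 68.3 and 70.3 RPM (log2 difference 1.78 ± 0.09). Both were lowest in the embryo at E9.5, as the heat map of the 4 lists shows. Eda2r, a death receptor family gene (2.05 ± 0.19), Polk, a translesion polymerase gene (1.91 ± 0.19), Perp, a desmosomal p53 target (1.65 ± 0.18), Trp53inp1 (1.32 ± 0.07), Sesn1 (1.27 ± 0.15), Zmat3 (1.06 ± 0.12) and Aen (0.93 ± 0.07) were the other non-overlapping members, with log2 differences in parentheses.

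Not every target did so. Cdkn1a, the cell cycle inhibitor p21, was not called (10.2, 20.7 and 21.2 RPM against 6.62, 33.3 and 45.2 RPM; adjusted p = 0.186), and Plk2 was lower in culture (log2 difference -0.91 ± 0.33; adjusted p = 0.0318, and 0.305 with group as a block). Mdm2, the ubiquitin ligase that limits p53, was higher (log2 difference 0.76 ± 0.10) but overlapped the embryo at its E12.5 male values. Pmaip1, a pro-apoptotic target, was called higher (log2 difference 1.54 ± 0.21), but its means were 41.6 ± 3.06 RPM in E12.5 males against 29.9 ± 7.44 RPM in d4c7, and the call was lost with group as a block (adjusted p = 0.196). Trp53 itself had 63.9, 192 and 279 RPM in culture and 3.54, 155 and 328 RPM in the embryo and was not called (adjusted p = 0.0857).

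Genes of pluripotency, shared by stem cells and early germ cells, had 19 tested members, 13 of them higher and 4 lower in culture, 9 with no overlap and all of those higher, and a median of 0.89. The block left 11 higher and 1 lower. Nanog, a core pluripotency factor, had 267, 300.4 and 319 RPM in culture and 89.7, 118 and 146 RPM in the embryo (log2 difference 1.37 ± 0.07). Tdgf1, the gene of the Nodal co-receptor Cripto, had 30.0, 34.9 and 43.8 RPM against 1.76, 5.12 and 28.4 RPM (log2 difference 2.18 ± 0.21), and Fgf4, a growth factor gene of the inner cell mass, had 0.444, 2.88 and 12.6 RPM against 0, 0 and 0.236 RPM (log2 difference 1.92 ± 0.23). The embryonic values of Fgf4 and its d4c3 values (0.782 and 0.444 RPM) were all under the 3-read floor, so its separation is uncertain in d4c3. Nanog lay in a narrow band within culture, whereas Fgf4 ran from 0.613 ± 0.240 RPM in d4c3 to 9.30 ± 4.62 RPM in d4c7. Dppa2 (1.63 ± 0.12), Dppa4 (1.31 ± 0.11), Tfcp2l1 (1.03 ± 0.12), Zfp42 (0.98 ± 0.08), Esrrb (0.89 ± 0.06) and Nr5a2 (0.70 ± 0.12) were the other non-overlapping members. Among the members lower in culture were Utf1 (log2 difference -0.47 ± 0.06, not called with group as a block, adjusted p = 0.167), a chromatin-bound factor, and Lin28b (-1.26 ± 0.14), which blocks let-7 maturation.

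The 13 tested genes of PGC specification did not share a direction: 5 were higher and 6 lower, with 3 higher and 2 lower without overlap, and a median of -0.11, and with group as a block 3 were higher and 3 lower. Prdm1, Prdm14 (log2 difference 0.67 ± 0.09) and Elf3, an epithelial transcription factor gene (2.49 ± 0.15), were higher, and Tfap2c, the third factor of the specification network, was higher with overlap (0.49 ± 0.09; adjusted p = 4.35e-04, and 0.261 with group as a block). Dnd1 and Dppa3 were lower without overlap. Genes of late germ cells and of meiosis were mostly lower in culture, with embryonic values that differ by stage. Of 21 late germ cell genes, 12 were lower and 2 higher, none without overlap and 4 lower with group as a block (median -0.89), and of 18 meiosis genes 11 were lower, 2 higher and 1 lower without overlap (median -0.83). Of the meiosis genes, 2 were lower and none higher with group as a block. Sycp2, Tex12 and Spo11, of the meiosis list, reached 5 RPM only in embryonic libraries, so the filter largely fixed their direction in advance. Ddx4, the germ cell helicase, was at 28.3 ± 2.32 RPM at E9.5 and 98.5 ± 27.8 RPM in d4c7, below E12.5 males with 427 ± 2.98 RPM and E12.5 females with 446 ± 1.013 RPM. Dazl, an RNA-binding protein gene of germ cell commitment, was at 11.2 ± 2.43 RPM at E9.5 and 400.3 ± 147 RPM in d4c7, below the E12.5 means of 1174 ± 15.4 RPM (male) and 1218 ± 38.2 RPM (female). For these 2 genes the culture values lay between E9.5 and E12.5, and neither call was kept with group as a block (adjusted p = 0.223 and 0.681). The retinoic acid list had 14 tested genes, 10 lower and 1 higher, none without overlap (median -0.83). Calls with group as a block were 3 lower and 1 higher. The higher member was Cyp26a1, the enzyme that breaks down retinoic acid (0.887, 11.7 and 21.99 RPM against 0, 0.580 and 3.54 RPM; log2 difference 2.47 ± 0.41).

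Hox genes mark position along the body axis. Of 31 listed members 17 were tested, and all 17 were called lower in culture, with no member separated and 1 lower with group as a block (median -0.97). All of them but Hoxa10 reached 5 RPM only in the E9.5 libraries. They thus passed the filter only through the group where they were high, which largely fixed their direction in advance. Hoxb9 had 26.1 and 32.1 RPM at E9.5 against 0 to 1.51 RPM in the 4 E12.5 libraries and a highest culture value of 0.785 RPM. Hoxb8, listed at 0 in culture and at E12.5, had 8.82 and 8.73 RPM at E9.5. The member called with group as a block was Hoxa10, with embryonic means of 4.30 ± 1.92 (E9.5), 9.03 ± 1.71 (E12.5 male) and 1.19 ± 1.32 RPM (E12.5 female). The Hox count thus followed from the filter and the E9.5 group, and is no result about the list.

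Antioxidant and metal response genes had 22 tested members, 12 higher and 1 lower, 7 higher without overlap (median 0.39), and with group as a block 8 were higher and 1 lower. Beside Mt1, Mt2 and Slc30a1, the separated genes were Gsta4, a glutathione transferase that acts on lipid aldehydes (150.4, 172 and 216 RPM against 34.4, 54.6 and 95.5 RPM; log2 difference 1.63 ± 0.09), the quinone reductase gene Nqo1 (23.04, 28.2 and 37.7 RPM against 6.88, 9.20 and 13.1 RPM; 1.49 ± 0.15), the glutathione transferase gene Gstp1 (1.15 ± 0.09), which has a near-identical copy and is uncertain, and Sod2, the mitochondrial superoxide dismutase gene (1.13 ± 0.11). Gpx3, a secreted glutathione peroxidase, was the lower one (log2 difference -1.40 ± 0.22). Both Gclm, a subunit of the glutathione-making ligase (log2 difference 0.68 ± 0.21), and Srxn1, sulfiredoxin (0.93 ± 0.23), were higher with overlap, and neither was called with group as a block (adjusted p = 0.191 and 0.135).

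Genes of lysosomes and autophagy had 24 tested members, of which 17 were higher and 2 lower, with 6 higher and none lower without overlap (median 0.57). The block left 10 higher and 1 lower. Gabarapl2, a protein that helps autophagosomes to form, had 149, 181 and 226 RPM against 51.5, 80.2 and 91.1 RPM (log2 difference 1.27 ± 0.09). Ctsa, the protease cathepsin A (1.22 ± 0.13), Psap, the precursor of the saposins (1.21 ± 0.10), Ulk1, the kinase that starts autophagy (1.06 ± 0.09), Hexa (0.69 ± 0.12) and Ctsb, cathepsin B (0.57 ± 0.08), were the other non-overlapping members. Tfeb, a regulator of lysosomal genes, was higher with overlap (log2 difference 0.69 ± 0.20; adjusted p = 0.242 with group as a block) and its relative Tfe3 was lower (log2 difference -0.84 ± 0.14). Interferon and antigen presentation genes had 14 tested members, 9 higher, 1 lower and 3 higher without overlap (median 0.55), and with group as a block 4 were higher and none lower. The separated genes were Ifi35 (2.66, 5.27 and 8.96 RPM against 0, 0.454 and 1.10 RPM; log2 difference 2.12 ± 0.23), Bst2, an antiviral membrane protein (1.33 ± 0.15), and Tapbp, which loads peptides onto MHC class I (1.00 ± 0.14).

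**Figure D3:**
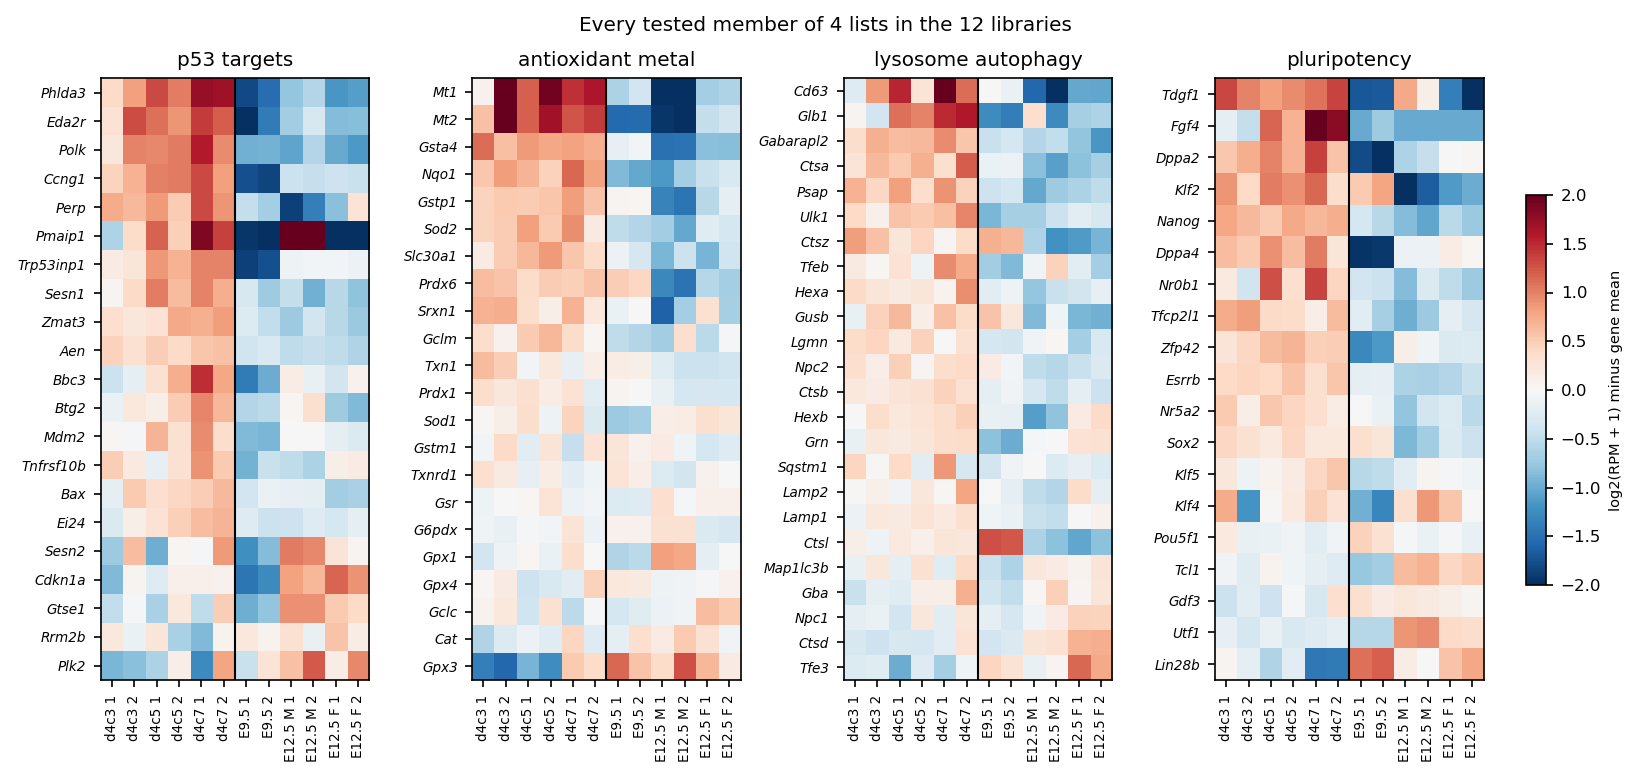
Level of every tested member of 4 lists in each library, as log2(RPM + 1) minus the gene's mean over the 12 libraries, with colours saturated at 2 in either direction and a line between culture (left) and embryo (right). Culture libraries were on the red side for most members of each list, as their counts of 16, 12, 17 and 13 called higher genes state.

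Cell-surface genes showed changes in both directions among 27 tested members, 13 higher and 7 lower, with 5 higher and 3 lower without overlap (median 0.01), the same counts as with group as a block. The tight-junction genes Cldn4 (3.52, 8.45 and 11.5 RPM against 0, 0.126 and 0.944 RPM; log2 difference 2.84 ± 0.24) and Cldn3 (2.03 ± 0.18), the tetraspanin gene Cd9 (1.79 ± 0.09), the ectoenzyme gene Cd38 (0.85 ± 0.19; adjusted p = 0.0748 with group as a block) and the fucosyltransferase gene Fut9 (21.2, 29.6 and 39.8 RPM against 3.33, 4.40 and 9.91 RPM; 2.25 ± 0.17), whose enzyme makes the SSEA-1 antigen of germ cells, were higher. N-cadherin, Cdh2 (1.03, 1.79 and 3.14 RPM against 7.81, 11.2 and 17.5 RPM; -2.06 ± 0.22), a further fucosyltransferase gene, Fut4 (0, 0 and 0.452 RPM against 1.51, 3.63 and 17.6 RPM; -2.35 ± 0.25), and the integrin gene Itgb1 (-1.05 ± 0.11) were lower. The fucosyltransferase genes Fut9 and Fut4 thus differed in opposite directions. However, Fut4 reached 5 RPM only in E12.5 females, Cdh2 only in embryonic libraries and Cldn4 only in culture. The filter largely fixed the direction of these members in advance. In the FGF and ERK list of 22 genes, 5 were higher and 6 lower, with 2 higher and 3 lower without overlap (median -0.04), and 3 higher and 3 lower with group as a block. Ccnd1, the cyclin D1 gene (0, 1.38 and 2.36 RPM against 3.13, 18.5 and 32.0 RPM; log2 difference -2.82 ± 0.27), Etv4, an ETS factor downstream of FGF (-2.07 ± 0.33), and Spred1, a brake on Ras (-1.04 ± 0.15), were lower, while the receptor gene Fgfr2 (75.9, 118 and 151 RPM against 24.9, 32.4 and 41.5 RPM; 1.78 ± 0.14) and Etv5 (0.66 ± 0.06), a close relative of Etv4, were higher.

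The BMP and TGF-beta response list had 18 tested genes, 9 lower and 5 higher, with 3 lower without overlap (median -0.34): Id1, Id4 and Bambi, a decoy receptor (-0.82 ± 0.14). With group as a block 4 were lower and none higher. Lefty1, an inhibitor of Nodal, was called higher (log2 difference 1.22 ± 0.13), yet its embryonic values ran from 7.74 ± 1.27 RPM at E9.5 to 187 ± 11.9 RPM in E12.5 males while its culture values were 27.1, 46.4 and 66.9 RPM, and the call was lost with group as a block (adjusted p = 0.342). Expansion of PGCLCs in this system is known to use agents that raise cAMP, which the labels used here do not name. Of 14 tested cAMP response genes, 4 were higher and 2 lower, and Prkar2b, a regulatory subunit of protein kinase A, was lower without overlap (median of the list 0.12; log2 difference of Prkar2b -0.94 ± 0.13), the only member called with group as a block.

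Metabolic lists had medians near that of all tested genes. Of 19 glycolysis genes, 6 were higher and 8 lower (median -0.14), or 2 and 4 with group as a block. Within them, Slc2a3, the glucose transporter GLUT3, was higher (432, 587 and 810.3 RPM against 62.9, 125 and 414 RPM; log2 difference 2.01 ± 0.12), Ldha, lactate dehydrogenase A, was lower (8.21, 13.3 and 27.9 RPM against 23.4, 71.1 and 640.1 RPM; -2.81 ± 0.14), and Pfkl, the liver-type phosphofructokinase, was lower (2.66, 3.51 and 5.89 RPM against 13.6, 22.9 and 46.7 RPM; -2.41 ± 0.19). Ldha overlapped the embryo, being at 640 and 620 RPM at E9.5, 75.8 and 66.5 RPM in E12.5 females and 23.4 and 26.5 RPM in E12.5 males. Slc2a3 was at 414 and 367 RPM at E9.5 and at 62.9 to 141 RPM at E12.5. Ldhb, the other subunit of lactate dehydrogenase, was higher with overlap (log2 difference 1.11 ± 0.13). Of 17 hypoxia response genes, 3 were higher and 7 lower, and Bnip3 (-1.08 ± 0.14), which acts in mitophagy, Fam162a (-0.91 ± 0.08), Mif (-0.74 ± 0.06) and Egln1 (-0.58 ± 0.10) were lower without overlap (median -0.03). Ero1l, an oxidase gene of the endoplasmic reticulum, was higher without overlap (93.1, 113 and 135 RPM against 61.8, 83.6 and 85.7 RPM; log2 difference 0.50 ± 0.09), and with group as a block 1 was higher and 4 were lower. Oxidative phosphorylation (51 tested, 9 higher, 18 lower; median -0.10), cholesterol synthesis (25 tested, 5 higher, 9 lower; median -0.10), one-carbon and nucleotide metabolism (25 tested, 7 higher, 8 lower; median 0.00) and amino acid and unfolded protein stress (21 tested, 3 higher, 6 lower; median 0.03) had called genes in both directions. With group as a block the higher and lower counts of these 4 lists were 4 and 5, 0 and 4, 3 and 2, and 2 and 2, in that order. Slc7a3, an arginine transporter, led the last list (30.4, 34.1 and 42.2 RPM against 1.82, 9.66 and 18.6 RPM; log2 difference 2.12 ± 0.14). Replication and cell cycle genes had 34 tested members, 11 higher and 14 lower (median -0.07; 4 and 4 with group as a block), with Ccne1, cyclin E1 (0.96 ± 0.10), and Cdc6, a licensing factor (0.74 ± 0.12), higher and E2f1 (-0.82 ± 0.12) lower without overlap.

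Chromatin regulators had called genes in both directions, with counts near the shares over all tested genes (27.7% higher and 26.8% lower). Of 16 DNA methylation and turnover genes, 5 were higher and 4 lower, 1 and 3 of them without overlap (median -0.25), the same counts as with group as a block. Uhrf1, which brings the maintenance methyltransferase to replicated DNA, had 3.90, 7.45 and 12.4 RPM in culture and 15.1, 19.5 and 30.9 RPM in the embryo (log2 difference -1.29 ± 0.19), and Dnmt3a, a de novo methyltransferase gene, had 10.2, 16.4 and 30.0 RPM against 32.8, 33.8 and 37.7 RPM (-0.96 ± 0.17). Dnmt3l was the non-overlapping higher gene of this list, and Dnmt3b was higher with overlap (9.39, 15.98 and 42.9 RPM against 5.15, 7.55 and 11.1 RPM; log2 difference 1.10 ± 0.21, adjusted p = 6.42e-04, and 0.0660 with group as a block). Of 25 genes of H3K9 methylation and Polycomb, 8 were higher and 6 lower, 5 and 1 without overlap (median 0.10), and 5 and 2 were called with group as a block. Eed (0.88 ± 0.08) and Suz12 (0.83 ± 0.14), core subunits of Polycomb repressive complex 2, its partners Mtf2 (0.60 ± 0.07) and Jarid2 (0.40 ± 0.07), and the H3K9 demethylase gene Kdm4c (1.04 ± 0.13) were higher, and the H3K9 methyltransferase gene Suv39h1 (-0.84 ± 0.18) was lower. With group as a block, Jarid2 (adjusted p = 0.0601) and Suv39h1 (adjusted p = 0.0645) were no longer called.

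Imprinted genes had 25 tested members, 14 lower and 3 higher in culture (median -0.54). Nnat, Dlk1 and Sgce reached 5 RPM only at E9.5, Snrpn and Plagl1 only in embryonic libraries, and Dcn only in culture. The filter largely fixed the direction of these members in advance. No lower member was separated from the embryo, and 4 of them were called with group as a block, Igf2, a fetal growth factor gene, among them (1.18, 4.89 and 14.1 RPM against 5.31, 32.0 and 179 RPM; log2 difference -2.47 ± 0.22). The separated members were Peg3, a zinc finger gene (322, 358 and 422 RPM against 148, 159 and 249.6 RPM; log2 difference 1.03 ± 0.07), and Impact, a translational regulator (18.8, 23.2 and 30.2 RPM against 6.92, 10.4 and 13.1 RPM; log2 difference 1.12 ± 0.17), both higher and both expressed from the paternal copy in somatic tissue. On the X chromosome, 103 of 409 tested genes were higher and 140 lower, or 25.2% and 34.2%, against 27.7% and 26.8% of all tested genes. X-linked genes made up 3.77% of tested genes, 3.00% of the non-overlapping higher genes and 4.73% of the lower ones.

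**Figure D4:**
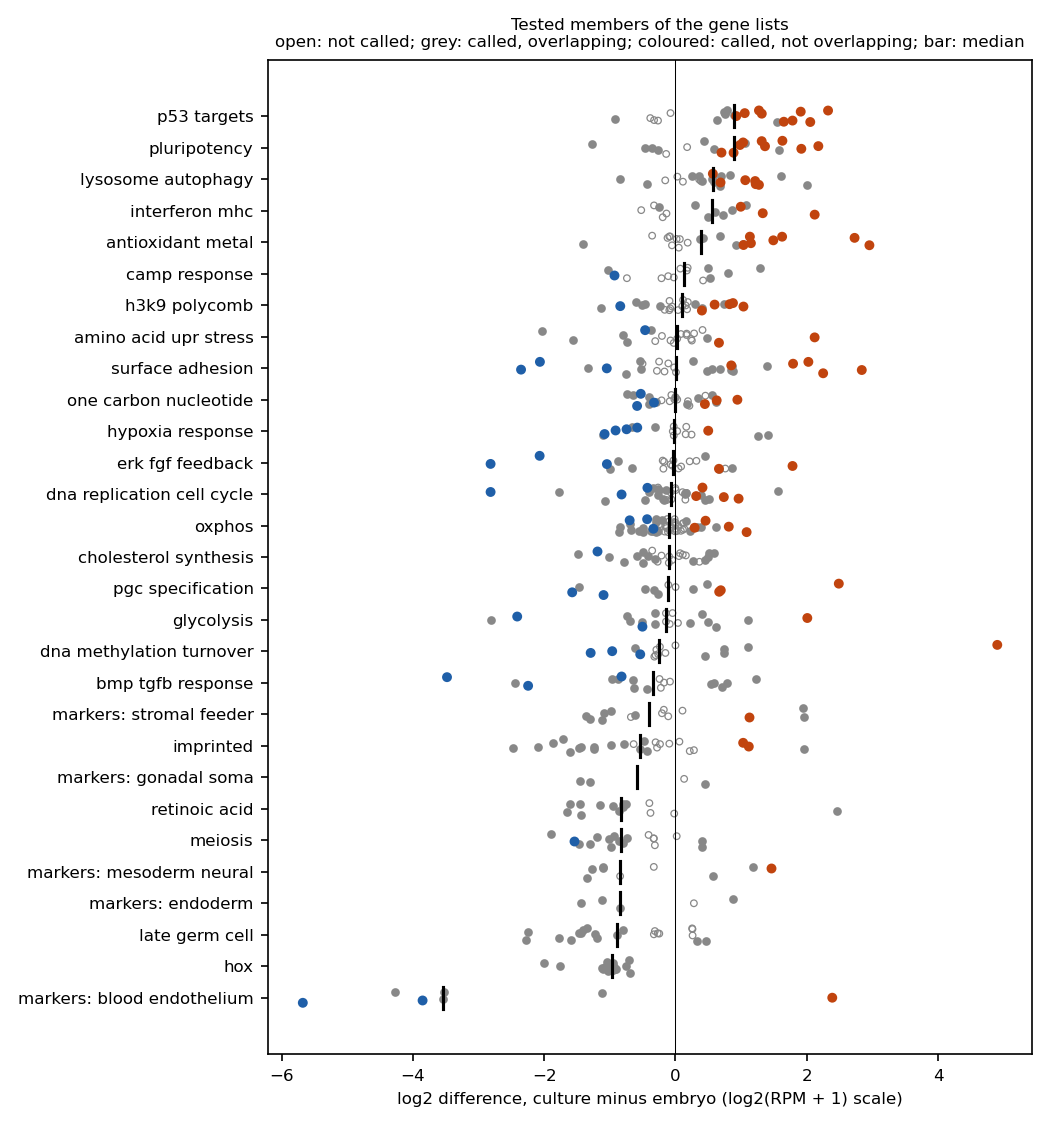
Log2 difference, culture minus embryo, of every tested member of each gene list and marker list (points; open where not called, grey where called with overlapping values, coloured where called without overlap), with the list's median as a bar. The medians of the p53, pluripotency, lysosome, interferon and antioxidant lists lay highest, from 0.90 to 0.39, and those of the late germ cell, Hox and blood lists lowest, while most lists held members on both sides of 0. Most tested Hox and blood members reached 5 RPM only in embryonic libraries, which largely fixed their direction in advance.

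Base composition differed slightly between the sets. The last 500 bases of the transcript, where 3′ reads fall, had a median GC content of 43.6% over all tested genes with a value, 42.6% in the non-overlapping higher genes and 46.0% in the lower ones. Its part in the differences was not tested.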

How the data were processed

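RPM values, one column per library, were deposited by the authors: reads of each gene set against all gene reads of the library, per the file headers and values. Total RNA was amplified as cDNA and sequenced from the 3′ end on a SOLiD instrument, per the labels' protocols. Cufflinks 2.2.0, TopHat 1.4.1 and cutadapt 1.3 are listed with the build mm10, but with no roles, per the submitters' processing notes. The table has 26218 gene rows and 92 ERCC rows, of which 24 are empty and all were kept out of the tests. Of values up to 20 reads, 81.8% to 87.4% per library were whole within 0.1 read, so whole reads were not recovered and no count model was run.

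Values were analysed as log2(RPM + 1), over 10856 genes with at least 5 RPM in at least 2 libraries, and 15362 genes were left out. A limma 3.58.1 model (R 4.3.3, eBayes with a mean-variance trend) had a mean per group, 6 residual and 8.02 prior degrees of freedom. Its contrast was the mean of the 3 culture group means minus that of the 3 embryonic ones, adjusted by Benjamini-Hochberg over all tested genes. The model was tested on simulated data. With group as a random block the consensus correlation was 0.539. Alternatives changed the scaling, pseudocount, filter, trend, error model and the libraries used.

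Genes were named by rule: the 15 largest increases and decreases among called, non-overlapping genes with a condition mean of at least 50 RPM, the 8 per direction with the widest gap, up to 5 called members per list and direction, and 9 germ cell genes. Some named genes are not described. Genes described outside the rule are further list members given for their role. Trp53, which is in no list, was chosen after its values were seen. The miRNAs of the D7Ertd143e locus were added after that gene's values were seen. A list member is not reported here. The gene lists were chosen with earlier results of these data known. Positions and sequences are from RefSeq (GRCm38.p6, the same build as mm10), by NCBI gene identifier for 10497 tested genes. GC content was taken for 10529 genes (97.0%).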

Additional observations from a re-analysis of the deposited data

Results flagged for a closer look

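ERCC spike-in RNAs, which enter no comparison above, summed to a median of 13050 RPM in the 6 embryonic libraries and 64.7 RPM in the 6 culture libraries. The embryonic libraries were not alike, with 628 and 1372 RPM at E9.5 and 12107 to 16494 RPM at E12.5, all amplified from 1 ng of RNA. The spike-in rows were outside the sum of reads in genes used for tests. Their part in the differences between culture and embryo was not tested.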

How the results depend on the processing

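The count of called genes was 5957 with the median log ratio set to 0, 5869 and 6045 with pseudocounts of 0.5 and 5, 6666 without the filter, 4400 with a filter of 20 RPM and 5648 without the trend. It fell further with other error models: 3723 (1715 of them lower) with 2 means over 6 against 6 libraries, and 1897 (1113 higher, 784 lower) with group as a random block. A change of at least 1 on the log2 scale left 1427 called genes (691 and 736) and 737 non-overlapping ones (444 and 293). Without E9.5, 3596 genes did not overlap (1771 and 1825). Leaving out each library in turn gave 5193 to 6259 called genes (2671 to 3055 higher, 2518 to 3210 lower) and 1753 to 2102 non-overlapping ones (1026 to 1171 and 706 to 931). Leaving out both libraries numbered 1 of d4c5 and d4c7 was chosen after seeing the data. Same-numbered libraries correlated at r over 0.1 in the 3 pairs of culture groups (0.116 to 0.455) and in none of the other 12 pairs, so the numbers were not taken to pair culture with embryo. The replicate block gave 6052 called genes (3061 higher, 2991 lower). Of 249 called genes named by the rule, 232 kept call and direction with each library left out, 175 with each group left out and 142 with group as a random block. Log2 differences that reversed or went to 0 were, without E9.5, Rpl10l -0.81, Piwil2 -0.46, Tpi1 0.24, Hoxb2 0.17, Hoxb8 0, Itga9 0.10, Postn 0.073, Twist1 0.51, Twist2 0, Meox1 0.57 and Pou5f1 0.017. Without E12.5 males they were Tcl1 0.0031, Gadd45a -0.32, Etv1 0.25, Gata2 -0.10, Lefty2 0.93 and Dazl 0.29, and without E12.5 females Pdpn 0.048, Cited2 -0.14 and Dazl 0.31. Dazl was at 0.28 without d4c3, and Kit at 0.059 without both libraries numbered 1. The causes were not tested. Depth limits statements on genes under the floor of 3 reads.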
